A study of Mus musculus with 6 samples.

Results

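A set of 10 genes that regulate or mark the epithelial-mesenchymal transition (EMT) was followed in a mouse mammary tumor cell line, namely Snai1, Snai2, Twist1, Twist2, Zeb1, Zeb2, Prrx1, Vim, Cdh2 and Cdh11. All probe sets whose platform annotation gives one of these symbols were taken, 27 of the 45037 probe sets tested, for 10 of the 18193 genes that have at least 1 probe set with that symbol only. The data were 6 Affymetrix mouse genome arrays of total RNA from Wnt1-YL cells grown in vitro. The line came from 1 invasive carcinoma of an FVB/n mouse carrying the MMTV-Wnt1 transgene, in which the mammary tumor virus promoter drives Wnt1 in mammary epithelium, so both groups share that transgene and that tumor. In 3 arrays the cells carried shLuc, the control short hairpin RNA, and in 3 they carried shSca-1, a lentiviral hairpin against the surface protein Sca-1. The labels call the 3 arrays of each group biological replicates and do not say whether they were separate infections. The comparison asks which transcripts differ once Sca-1 is repressed.

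EMT is the switch by which cells of an epithelial sheet loosen their junctions and take on the shape and motility of mesenchymal cells. Snai1 and Snai2 (zinc finger proteins of the Snail family) and Zeb1 and Zeb2 (zinc finger homeodomain proteins) bind E-box sequences in the promoters of epithelial genes, among them the E-cadherin gene Cdh1, and repress them. Twist1 and Twist2 are basic helix-loop-helix factors and Prrx1 is a paired-related homeobox factor, and all 3 can drive a mesenchymal state. Vim encodes the intermediate filament protein vimentin, and Cdh2 and Cdh11 encode N-cadherin and the mesenchymal OB-cadherin. In the mammary gland, Snai2 is also expressed by normal basal cells.

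On all 6 arrays, none of the 27 probe sets passed the test of shSca-1 against shLuc cells (limma, adjusted p under 0.05), nor did any of the 45037 (0%). One array labelled shLuc, replicate 3, stood apart from the other 5 in several of the genes, so each 6-array fold change rests on it. It also carried a higher summed signal of luminal epithelial markers than the others and less Ly6a than shLuc replicates 1 and 2, and whether it holds the same cells as they do was not tested. By the brightest probe set of each gene, Snai2, Zeb1 and Zeb2 were 3.86 to 5.36 times lower there than on the other arrays. Twist2 was at least 5.39 times lower, Prrx1 at least 6.52 times higher, and Vim 1.20 times lower. Both bounds take an intensity of 64, the line used here for background, in place of any lower value. Without that array, Zeb2 was the only gene of the 10 that passed the test, where 3.89% of all genes did. Its brightest probe set had 1.61 times less signal in shSca-1 cells (limma, adjusted p = 0.041). That call was lost when shSca-1 replicate 1 (limma, adjusted p = 0.11) or shSca-1 replicate 2 (0.16) was left out as well. With shLuc replicate 1 or 2 left out as well, the log2 fold change was -0.53 or -0.84. In those fits 1 shLuc array remains, too few to judge the call.

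The promoters of 4 genes are shown as examples of different values on shLuc replicate 3. Twist2 and Zeb2 were low there, as were Snai2, which had no promoter entry, and Zeb1, which is not shown. Prrx1 was high. Snai1 was also highest there, but only 1.23 times above the others with intensities under 64 set to 64. The sequences are the 250 bases before the transcription start in RefSeq on build GRCm38.p6, 5′ to 3′ on the strand of the gene, with E-boxes (CANNTG, a motif that reads the same on both strands) in capitals. Snai1 is at chr2:167537945-167538194 (+), Twist2 at chr1:91801211-91801460 (+), Zeb2 at chr2:45117443-45117692 (-), the most upstream of 4 annotated windows, and Prrx1 at chr1:163313651-163313900 (-).
Snai1: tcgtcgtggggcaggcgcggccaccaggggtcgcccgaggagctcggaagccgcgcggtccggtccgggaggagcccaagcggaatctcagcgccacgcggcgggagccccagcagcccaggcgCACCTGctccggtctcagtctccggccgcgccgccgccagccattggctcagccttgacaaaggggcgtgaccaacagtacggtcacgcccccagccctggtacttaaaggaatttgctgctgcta
Twist2: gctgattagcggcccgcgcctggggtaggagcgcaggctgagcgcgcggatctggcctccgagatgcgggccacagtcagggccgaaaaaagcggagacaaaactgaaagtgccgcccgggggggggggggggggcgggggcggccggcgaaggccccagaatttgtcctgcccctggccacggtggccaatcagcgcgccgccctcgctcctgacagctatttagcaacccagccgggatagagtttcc
Zeb2: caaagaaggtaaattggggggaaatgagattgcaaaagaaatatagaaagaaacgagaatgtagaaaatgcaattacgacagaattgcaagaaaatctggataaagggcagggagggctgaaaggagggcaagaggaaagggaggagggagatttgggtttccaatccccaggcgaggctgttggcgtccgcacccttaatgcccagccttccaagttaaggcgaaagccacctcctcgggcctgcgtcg
Prrx1: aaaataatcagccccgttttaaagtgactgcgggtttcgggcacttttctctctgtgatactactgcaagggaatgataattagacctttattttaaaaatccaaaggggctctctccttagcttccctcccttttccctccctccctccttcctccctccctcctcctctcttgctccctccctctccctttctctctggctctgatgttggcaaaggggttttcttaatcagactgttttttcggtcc

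The Snai1 window held 1 E-box, CACCTG, a form known to be bound by Snail and Zeb proteins, and the other 3 windows held none. The remaining 3 Zeb2 windows and those of Twist1 and Vim held none either, and those of Zeb1 and Cdh2 were not listed by gene. Over all 32851 promoter windows of the same length, 66.2% held an E-box and 17.2% held CAGGTG or CACCTG (1 sequence read on either strand). A match is a string of letters, not a measured binding site.

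Ly6a, the gene of Sca-1 and the target of the hairpin, was lower on every shSca-1 array. It read 7646, 7362 and 2843 on shLuc replicates 1 to 3 and 284.9, 313.8 and 306.1 on the shSca-1 arrays (intensity, arbitrary units). The log2 fold change was -4.17 (SE 0.36, limma, adjusted p = 0.051), and -4.64 without shLuc replicate 3 (adjusted p = 5.2e-07). The Ly6a probe set carries no symbol in the platform annotation and was identified through the gene list supplied with the study.

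The array medians were alike, at 37.3 to 40.6, but shLuc replicate 3 differed from each other array by a median of 0.296 to 0.321 on the log2 scale. The median difference was 0.090 between shLuc replicates 1 and 2 and 0.132 to 0.174 among the shSca-1 arrays. Between those 2 shLuc arrays and the shSca-1 arrays it was 0.176 to 0.234. The markers of basal mammary epithelium were bright on all arrays, with Krt14 at 7779 to 11849 and Krt5 at 3141 to 11431, both lowest on shLuc replicate 3. The basal keratin gene Krt17, past the rule of the study given further on, read 1583, 1655 and 1454 on the shLuc arrays and 831.5, 824.7 and 1171 on the shSca-1 arrays, a log2 fold change of -0.75 (limma, adjusted p = 0.23) and of -0.80 without shLuc replicate 3 (adjusted p = 0.037). That 5-array call did not hold with shSca-1 replicate 1 (limma, adjusted p = 0.12) or shSca-1 replicate 2 (0.17) left out as well. With shLuc replicate 1 or 2 left out, the log2 fold change was -0.83 or -0.77, and the 1 shLuc array left is too few to judge the call. The summed intensity of 11 luminal markers was 20949.5 on shLuc replicate 3. It was 509.0 to 565.7 on the other shLuc arrays and 535.3 to 556.5 on the shSca-1 arrays. On shLuc replicate 3, 9 of the 11 lay over 2 times above the highest of the other 5 arrays, where 4.31% of all genes did. That array is shown apart because it carries luminal genes, so this count restates the choice and is no separate finding. The 8 basal markers summed to 17498 there, against 37213 and 37897 on the other shLuc arrays and 32023 to 40831 on the shSca-1 arrays. The 10 fibroblast markers summed to 846.6 on that array and to 1248 and 1073 on the other shLuc arrays. On the shSca-1 arrays they summed to 1125, 1181.5 and 542.7, and 6 of the 10 were below 64 everywhere. Of 6 endothelial markers 5 were below 64 on every array, with Pecam1 at 1.00 to 2.41, and 0 of the 6 were set apart by more than 2 times on shLuc replicate 3. The 7 leukocyte markers summed to 397.2 on shLuc replicate 3, to 657.6 and 658.8 on the other shLuc arrays and to 441.6 to 570.5 on the shSca-1 arrays. Of these 4 reached 64, while the defining marker Ptprc stayed at 3.98 to 20.5. Cd68, a macrophage lysosomal protein named after its values were seen, read 310.9, 297.6 and 32.9 on the shLuc arrays and 53.9, 77.6 and 211.9 on the shSca-1 arrays (log2 fold change -1.66 without shLuc replicate 3, limma, adjusted p = 0.13). The part of these differences in the results on the 10 genes was not tested. Fewer cells of a type and less RNA per cell cannot be told apart in such bulk samples.

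**Figure D1:**
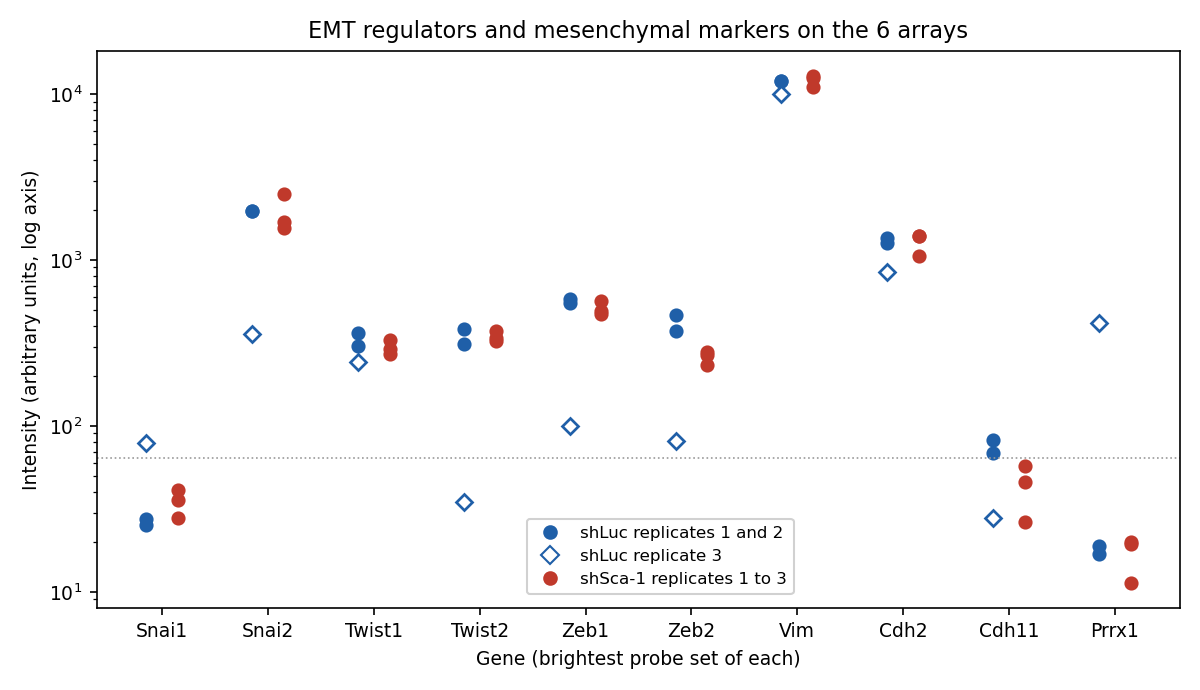
Intensity (arbitrary units, log axis) of the brightest probe set of each of the 10 genes, 1 point per array, with shLuc replicate 3 as an open diamond and the dotted line at 64. Snai2, Twist2, Zeb1 and Zeb2 show the open diamond far below the filled points, and Prrx1 shows it far above.

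The plot of intensity by array shows every gene through its brightest probe set, the one with the highest mean log2 intensity. Each point is 1 array, and a probe set below 64 on every array (dotted line) is called near background here. Of the 27 probe sets 21 reached 64 on at least 1 array and 6 did not. Intensities of different probe sets depend on the probes and are not set against each other.

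Snai1, the Snail family repressor named first in most accounts of EMT, was dim. It read 27.3, 25.4 and 78.7 on shLuc replicates 1 to 3 and 36.0, 41.2 and 27.8 on the shSca-1 arrays, so it reached 64 on shLuc replicate 3 alone. Its log2 fold change, shSca-1 over shLuc, was -0.13 (SE 0.46, 95% confidence interval -1.23 to 0.96, limma, adjusted p = 0.95). All 3 shSca-1 values lay above those of shLuc replicates 1 and 2, by 0.39 on the log2 scale (SE 0.30), and the difference did not pass the test (limma, adjusted p = 0.60).

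Snai2, the second Snail family repressor, was well above background and had 2 probe sets. The brighter one read 1960.2, 1963 and 355.9 on shLuc replicates 1 to 3 and 1554, 1686 and 2496 on the shSca-1 arrays. shLuc replicate 3 was the lowest of the 6, and the remaining shLuc values fell inside the shSca-1 range. The log2 fold change was 0.75 on 6 arrays (SE 0.64, 95% confidence interval -0.77 to 2.27, limma, adjusted p = 0.77) and -0.07 without shLuc replicate 3 (SE 0.18, -0.49 to 0.35, adjusted p = 0.90). The other probe set gave 0.78 and -0.09. Both were low on shLuc replicate 3, by 5.36 and 5.85 times against the geometric mean of the other 5 arrays.

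Within the shSca-1 group, replicate 3 held the highest Snai2 value and replicates 1 and 2 lay close together. When that array was left out as well, the brighter Snai2 probe set was lower in shSca-1 cells by a log2 difference of -0.28 (limma, adjusted p = 0.033), a call that rests on 2 arrays against 2.

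Twist1, a basic helix-loop-helix factor active in early mesoderm, varied little. It read 304.9, 363.8 and 243.4 on the shLuc arrays and 272.8, 290.8 and 327.7 on the shSca-1 arrays. The groups overlapped, with a log2 fold change of -0.02 (SE 0.17, 95% confidence interval -0.43 to 0.39, limma, adjusted p = 0.98) and of -0.17 without shLuc replicate 3 (SE 0.13, -0.46 to 0.12, adjusted p = 0.59). Its value on shLuc replicate 3 was 1.28 times below the geometric mean of the others.

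Twist2, the closest relative of Twist1, behaved differently on that array. It read 383.3, 312.8 and 34.9 on the shLuc arrays and 323.9, 373.9 and 336.6 on the shSca-1 arrays. The shLuc replicate 3 value lay under 64, at least 5.39 times below the others, and the other 5 had a coefficient of variation of 8.96%. Over 6 arrays its log2 fold change was 1.09 (SE 0.84, 95% confidence interval -0.89 to 3.08, limma, adjusted p = 0.74). Without shLuc replicate 3 it was -0.01 (SE 0.12, -0.29 to 0.28, limma, adjusted p = 0.98).

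Zeb1, a direct repressor of E-cadherin and of the miR-200 family, showed the same arrangement in its brightest probe set. It read 578.4, 552.1 and 99.5 on the shLuc arrays and 494.2, 567.4 and 470.3 on the shSca-1 arrays. shLuc replicate 3 was 5.33 times below the others, and the rest of the shLuc values overlapped the shSca-1 values. On the log2 scale the fold change was 0.68 on 6 arrays (SE 0.64, 95% confidence interval -0.83 to 2.19, limma, adjusted p = 0.79) and -0.15 without shLuc replicate 3 (SE 0.10, -0.39 to 0.09, adjusted p = 0.55). A dimmer Zeb1 probe set, at 31.5 on shLuc replicate 3 and 57.4 to 82.6 elsewhere, gave -0.04 without that array. The remaining 2 Zeb1 probe sets were near background. One of them was the only 1 of the 27 with an unadjusted limma p under 0.05 on 6 arrays (adjusted p = 0.45), with values of 4.33 to 23.3.

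Zeb2, the paralog of Zeb1, was lower on the shSca-1 arrays than on shLuc replicates 1 and 2 in each of its 3 bright probe sets. Its brightest probe set (1434298_at) read 463.2, 373.6 and 81.2 on the shLuc arrays and 233.8, 265.7 and 280.2 on the shSca-1 arrays. The shSca-1 values thus lay below both of the first shLuc arrays and above shLuc replicate 3. A second probe set (1422748_at) read 177.1, 150.8 and 32.9 against 84.2, 90.9 and 95.9, in the same order, and another (1456389_at) read 291.8, 261.6 and 48.9 against 168.0, 182.2 and 244.6.

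**Figure D2:**
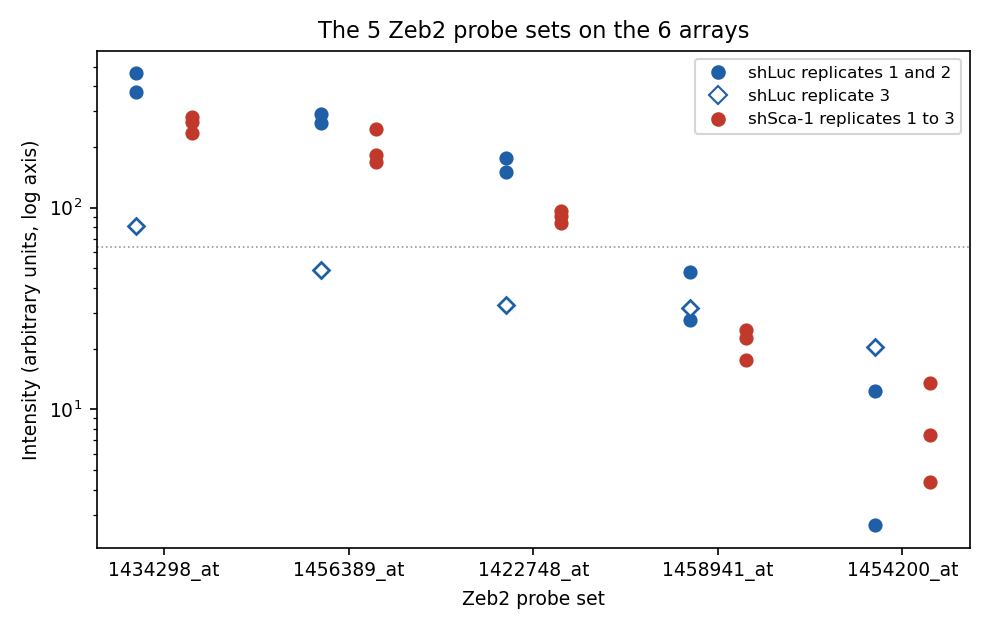
Intensity (arbitrary units, log axis) of the 5 Zeb2 probe sets, 1 point per array, with shLuc replicate 3 as an open diamond and the dotted line at 64. In the 3 probe sets to the left the shSca-1 points lie between shLuc replicates 1 and 2 above and shLuc replicate 3 below.

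On 6 arrays the Zeb2 log2 fold changes of these 3 probe sets were 0.10, -0.09 and 0.34, and none passed the test (limma, adjusted p = 0.97, 0.98 and 0.90). With shLuc replicate 3 left out, the first fell by 0.68 on the log2 scale in shSca-1 cells (SE 0.13, 95% confidence interval -0.99 to -0.38, limma, adjusted p = 0.041), 1.61-fold. The second fell by 0.86 (SE 0.15, -1.21 to -0.50, limma, adjusted p = 0.031), 1.81-fold. Probe set 1456389_at gave -0.50 (SE 0.17, -0.89 to -0.10) and did not pass (limma, adjusted p = 0.20). The plot of the Zeb2 probe sets shows that the other 2 were near background on every array.

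The Zeb2 calls were not kept in every setting. With shLuc replicate 1 left out as well, the log2 fold changes of the brightest probe set and of 1422748_at were -0.53 and -0.74. With shLuc replicate 2 left out they were -0.84 and -0.97. These fits hold 1 shLuc array and cannot show whether the calls hold. With shSca-1 replicate 1 left out, the adjusted limma p values were 0.11 and 0.090. For shSca-1 replicate 2 they were 0.16 and 0.14. The fits called 387 and 49 of all probe sets, against 1244 with neither left out. Leaving out shSca-1 replicate 3 kept both probe sets past the threshold (0.010 and 0.011) and added 1456389_at (-0.66, limma, adjusted p = 0.012). The calls were also lost with intensities under 16 set to 16 (0.17 and 0.095), under 64 set to 64 (0.31 and 0.19), without a trend in the variance (0.29 and 0.24) and by the methods' t-test (0.29 and 0.21). The floors called 250 and 43 of all 45037 probe sets, and the last 2 settings 1 each. The log2 fold change of the brightest probe set stayed between -0.84 and -0.53 when arrays were left out. Taking the two-sided p as 2 times the one-sided p, the smallest exact permutation p is 0.2 with 2 arrays against 3. With 3 against 3 it is 0.1.

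Prrx1, the paired-related homeobox factor, was near background on 5 arrays and bright on 1. Its brightest probe set read 18.8, 17.0 and 417.6 on the shLuc arrays and 19.3, 20.0 and 11.4 on the shSca-1 arrays. shLuc replicate 3 was at least 6.52 times above the others, with their values set to 64. A further 4 Prrx1 probe sets were also high there, at 67.4 to 127.4 against at most 26.4 on any other array, and the sixth stayed below 8 throughout. The 6-array log2 fold change was -1.64 (SE 1.18, 95% confidence interval -4.43 to 1.15, limma, adjusted p = 0.72). Without shLuc replicate 3 it was -0.12 (SE 0.42, -1.10 to 0.85, limma, adjusted p = 0.93).

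Vim was the steadiest of the 10 genes, with a coefficient of variation of 5.66% over the 5 arrays other than shLuc replicate 3. Its brightest probe set read 12026, 11957 and 10025 on the shLuc arrays and 12458, 12812 and 10999 on the shSca-1 arrays. The groups overlapped, and shLuc replicate 3 was lowest by only 1.20 times. The log2 fold change was 0.09 (SE 0.11, 95% confidence interval -0.16 to 0.35, limma, adjusted p = 0.83) and 0.01 without shLuc replicate 3 (SE 0.08, -0.17 to 0.18, adjusted p = 0.98). The other 2 Vim probe sets gave 0.06 and 0.05 on 6 arrays and 0.00 and -0.07 on 5.

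Cdh2, which encodes N-cadherin, was bright in both groups. It read 1349, 1265 and 842.1 on the shLuc arrays and 1392, 1386 and 1053 on the shSca-1 arrays. Replicate 3 was the lowest in each group and the groups overlapped, with a log2 fold change of 0.17 (SE 0.21, 95% confidence interval -0.32 to 0.65, limma, adjusted p = 0.84) and of -0.04 without shLuc replicate 3 (SE 0.13, -0.34 to 0.25, adjusted p = 0.91). A second Cdh2 probe set gave 0.27 and 0.20, and passed only with shSca-1 replicate 3 left out as well (0.35, limma, adjusted p = 0.023).

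Cdh11, a cadherin of mesenchymal cells, was dim. It read 82.3, 68.8 and 27.8 on the shLuc arrays and 45.9, 57.5 and 26.3 on the shSca-1 arrays, replicate 3 again being the lowest in each group. The groups did not overlap once shLuc replicate 3 was left out, with a log2 fold change of -0.87 (SE 0.34, 95% confidence interval -1.67 to -0.08) that did not pass (limma, adjusted p = 0.26). On 6 arrays it was -0.39 (SE 0.48, limma, adjusted p = 0.84). The second Cdh11 probe set was near background.

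**Figure D3:**
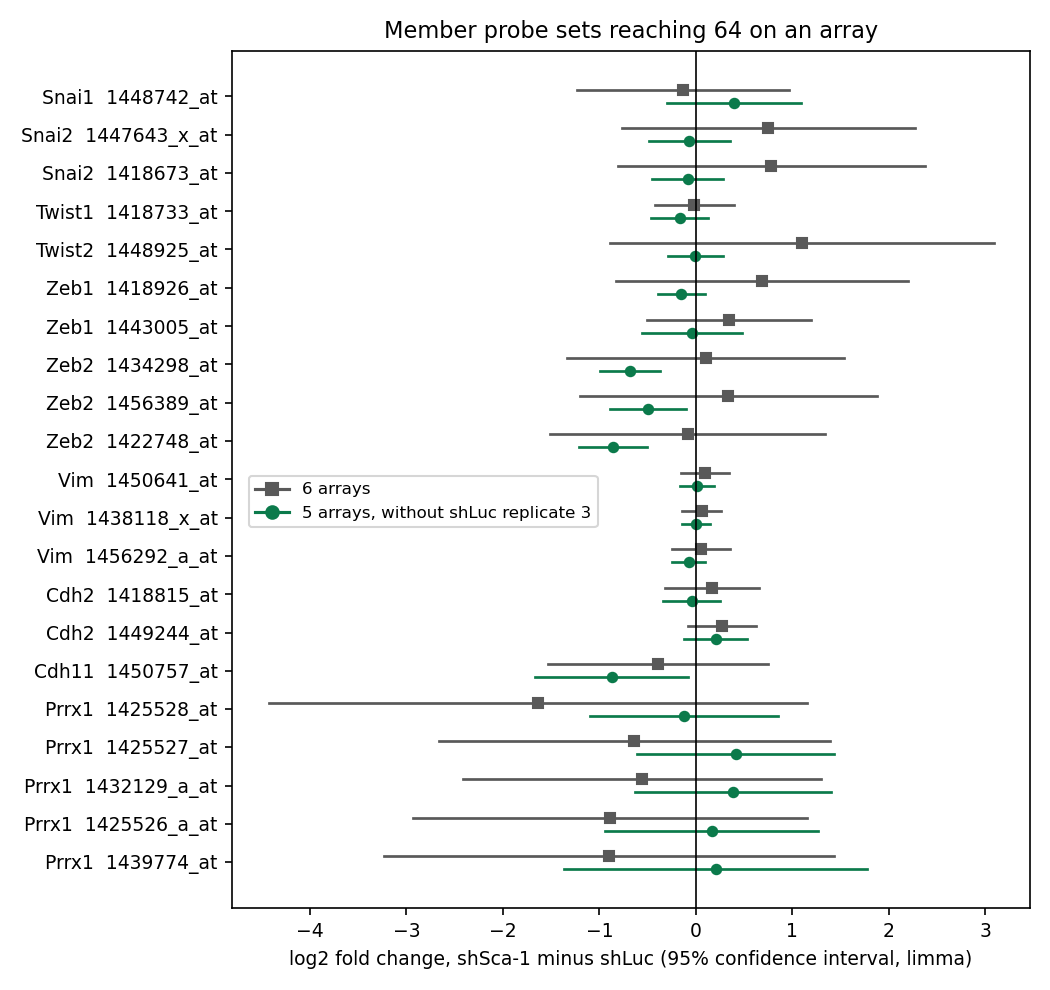
log2 fold change of shSca-1 over shLuc with its 95% confidence interval (limma) for the 21 probe sets that reached 64, on 6 arrays (gray squares) and without shLuc replicate 3 (green circles). The gray intervals are wide for the genes in which shLuc replicate 3 stands apart, and the green ones exclude 0 for the 3 bright Zeb2 probe sets and 1 of Cdh11.

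The plot of fold changes sets the 6-array and 5-array estimates of each probe set side by side. The 95% interval of Twist2 ran from -0.89 to 3.08 with all arrays and from -0.29 to 0.28 without shLuc replicate 3. For Vim the intervals were narrow in both fits.

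Of the 27 probe sets, 0 passed an adjusted p of 0.05 on 6 arrays, where the limma fit called 0% of all probe sets (smallest adjusted p = 0.051), and 1 had an unadjusted p under 0.05 (9.26% of all did). The study's own rule was an unadjusted p under 0.01 with a fold over 1.5. Applied here to limma p values and not to those of the study's t-test, it passed 0 of the 27 and 1.83% of all probe sets. Those were 225 higher and 599 lower (327 and 481 after quantile normalization). On the 5 arrays without shLuc replicate 3 the adjusted p called 2 of 27, both Zeb2 and both lower, against 2.76% of all probe sets in either direction and 1.92% lower. Those genome-wide calls were 379 higher and 865 lower, and 872 higher and 1060 lower after quantile normalization. With 1 more array left out the fit called 2 probe sets in all (shLuc replicate 1 omitted), 1 (shLuc replicate 2), 387 (shSca-1 replicate 1), 49 (shSca-1 replicate 2) and 3891 (shSca-1 replicate 3). Of the 27, 6 had an unadjusted p under 0.05 in that fit, 5 lower and 1 higher, where 16.3% of all did. By the study's rule 2 of 27 passed on the 5 arrays, against 3.56% of all. Groups did not overlap for 2 of 27 probe sets on 6 arrays (16.5% of all) and for 9 of 27 on 5 arrays (33.6% of all). The 9 included Snai1, Cdh11 and 4 of Zeb2, and the rest were near background. The median log2 fold change of the 27 was 0.05 on 6 arrays and -0.07 on 5, beside -0.03 and -0.04 over all probe sets.

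shLuc replicate 3 was compared with the other 5 arrays without a test, since it is 1 array. A value was set apart if it was over 2 times the highest or under 1 in 2 of the lowest of the others. By this rule 5 of the 27 probe sets were set apart as higher, all Prrx1, and 8 as lower, against 3.72% and 3.6% of all probe sets. With intensities under 64 set to 64, the counts were 1 higher and 6 lower, against 2.19% and 1.48%. The 8 were both probe sets of Snai2, that of Twist2, the brightest of Zeb1, 3 of Zeb2 and the dimmest of Prrx1. On the other 5 arrays no member probe set was set apart, except 1 near-background Cdh11 probe set that was low on shSca-1 replicate 2, and 1.42 to 2.43% of all probe sets were set apart on each of them.

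By gene, counted on the brightest probe set, 1 of 10 was set apart as higher (Prrx1) and 4 of 10 as lower (Snai2, Twist2, Zeb1 and Zeb2), against 4.31% and 3.71% of all genes. Each of the 10 reached 64 on an array, where 7183 of the 18193 genes did not, so these shares are not over like genes. Of the 10, 7 were lower on shLuc replicate 3 than on every other array, where 24.2% of all genes were, and 2 were higher, where 29.3% were. Twist1, Vim and Cdh2 belong to the 7 without being set apart. Within the Twist and Snail pairs, Twist2 and Snai2 were set apart as lower and Twist1 and Snai1 were not.

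Other genes of the EMT program were described from 4 lists, by the brightest probe set of each gene. The first held 22 further transcription factors linked to EMT, 20 of them measured. None passed the rule of the study on 6 arrays, which called 2.04% of all genes. Its brightest members were Sox4, a factor that promotes EMT in mammary cells, and Hmga2, a chromatin protein that raises Snai1 and Twist1 transcription. Sox4 read 3749, 3603 and 5091 on the shLuc arrays and 4372, 4484 and 3717 on the shSca-1 arrays, in overlapping ranges. Hmga2 read 2833, 2891 and 581.3 against 2342, 2277 and 2817, so that shLuc replicate 3 was 4.5 times lower, as for Snai2. Hmga2 and Foxc2 were set apart as lower on that array and Foxc1, Sox9 and Scx as higher. These are 2 and 3 of the 20, against 3.71% and 4.31% of all genes.

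Without shLuc replicate 3, 1 of the 20 factors passed an adjusted p of 0.05, against 3.89% of all genes. It was Id3, an inhibitor of basic helix-loop-helix factors, and it is named here after its values were seen. Id3 read 218.8, 208.6 and 883.4 on the shLuc arrays and 667.7, 723.7 and 1269 on the shSca-1 arrays. The shSca-1 values lay above shLuc replicates 1 and 2, by 1.99 on the log2 scale (SE 0.25, limma, adjusted p = 0.011), and shLuc replicate 3 lay among them. On 6 arrays the difference was 1.31 (limma, adjusted p = 0.55). The 5-array call did not hold without shSca-1 replicate 2 (limma, adjusted p = 0.080). Without shLuc replicate 1 or 2 the log2 fold change was 2.03 or 1.96, and the 1 shLuc array left is too few to judge the call.

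The second list held 38 mesenchymal effectors and matrix genes, 35 of them measured. Timp1, a secreted inhibitor of matrix metalloproteinases, was the 1 gene of the list past the rule of the study on 6 arrays. It read 3450.3, 3529.9 and 3706 on the shLuc arrays and 5692, 6280.0 and 6345 on the shSca-1 arrays, with no overlap. Its log2 fold change was 0.78 (SE 0.08, limma, adjusted p = 0.060) and 0.81 without shLuc replicate 3 (adjusted p = 0.0036). The 5-array call did not hold without shSca-1 replicate 2 (limma, adjusted p = 0.060). Without shLuc replicate 1 or 2 the log2 fold change was 0.79 or 0.82, and the 1 shLuc array left is too few to judge the call.

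Sparc, a matrix glycoprotein and the brightest of the list, read 8079, 8005 and 7570.3 on the shLuc arrays and 10378, 11203 and 10248 on the shSca-1 arrays. It rose by 0.40 on the log2 scale without shLuc replicate 3 (limma, adjusted p = 0.021) and gave 0.43 on 6 arrays (adjusted p = 0.18). Acta2, smooth muscle actin, read 9056, 8604 and 4776 against 6194, 6090.0 and 4629.8. It fell by 0.66 without shLuc replicate 3 (limma, adjusted p = 0.037) and gave -0.36 on 6 arrays (adjusted p = 0.72). Msn, which links actin to the membrane and is named after its values were seen, fell by 0.37 in the same fit (limma, adjusted p = 0.020). With Timp1, these were the 4 of 35 that passed, 2 higher and 2 lower, against 3.89% of all genes. With shLuc replicate 1 left out as well, the log2 fold changes of Sparc, Acta2 and Msn were 0.41, -0.62 and -0.36. With shLuc replicate 2 left out they were 0.39, -0.70 and -0.37. The 1 shLuc array left in these fits is too few to judge the calls. With shSca-1 replicate 1 left out, the adjusted p values of the 3 genes were 0.057, 0.071 and 0.050 (limma). For shSca-1 replicate 2 they were 0.11, 0.13 and 0.12 (limma).

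On shLuc replicate 3 the effectors moved both ways, with 4 of 35 set apart as higher and 8 as lower. The shares over all genes were 4.31% and 3.71%. The following are named after their values were seen. Fn1, which encodes fibronectin, read 6449.9 there, 355.0 on shSca-1 replicate 3 and 1305.5 to 1389 on the rest. S100a4, a calcium-binding protein of motile cells, read 687.5 there against 4068 to 5008. The receptor tyrosine kinase genes Axl (1092 against 2992 to 3331) and Ddr2 (15.6 against 318.0 to 570.4) were lower there.

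The third list held 12 regulators of the epithelial state, all measured. Grhl1, a grainyhead factor of epithelia, was the 1 gene past the rule of the study on 6 arrays. It read 102.3, 99.3 and 245.1 on the shLuc arrays and 18.6, 29.8 and 72.4 on the shSca-1 arrays, a log2 fold change of -1.98 (SE 0.56, limma, adjusted p = 0.35). Without shLuc replicate 3 it was -1.56, and the adjusted p was 0.17. The 2 brightest were Klf5 (2188, 2519 and 1274 against 1167, 1500.1 and 2402) and Klf4 (1673, 1740.2 and 412.8 against 1754, 1883 and 2500.6), Krüppel-like factors of epithelial cells, and neither passed in either fit.

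On shLuc replicate 3, 5 of these 12 regulators were set apart as higher, namely Ovol2, Grhl1, Esrp1, Elf5 and Ehf, and 1, Klf4, as lower. The shares over all genes were 4.31% and 3.71%. With intensities under 64 set to 64, 3 were higher, without Ovol2 and Elf5, where 2.19% of all probe sets were. Esrp1, the splicing factor of epithelial transcripts and named after its values were seen, read 1932 there and 4.95 to 14.1 on the other 5 arrays.

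The fourth list held 27 epithelial genes that EMT factors repress, 26 of them measured. None passed the rule of the study on 6 arrays or an adjusted p of 0.05 without shLuc replicate 3. Dsp, the desmosomal plaque protein and the brightest, read 5235, 5094 and 2566 on the shLuc arrays and 3914, 3769 and 6233 on the shSca-1 arrays. Spint2, a membrane-bound protease inhibitor, read 2164, 2121 and 4845 against 1685, 1893 and 2805. Both overlapped between the groups. This list shares genes with the luminal markers for which shLuc replicate 3 is shown apart, so its count there is no separate finding. On that array, 15 of the 26 were set apart as higher and 0 as lower, against 4.31% and 3.71% of all genes.

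Among them, and named after their values were seen, were the classic target of Snail and Zeb repressors, Cdh1, and the luminal keratin gene Krt18. Cdh1 read 24.6, 26.2 and 4482 on the shLuc arrays and 27.4, 43.3 and 60.3 on the shSca-1 arrays. Its shSca-1 values lay above those of shLuc replicates 1 and 2 but near background, and shLuc replicate 3 was at least 70.0 times above the others, with their values set to 64. Krt18 read 7175 on shLuc replicate 3 and 37.7 to 65.2 elsewhere. On shLuc replicate 3, Snai2, Twist2, Zeb1 and Zeb2 were low, and Cdh1, Prrx1, Fn1 and Snai1 were highest. These are values of a single array, and any link between them was not tested.

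**Figure D4:**
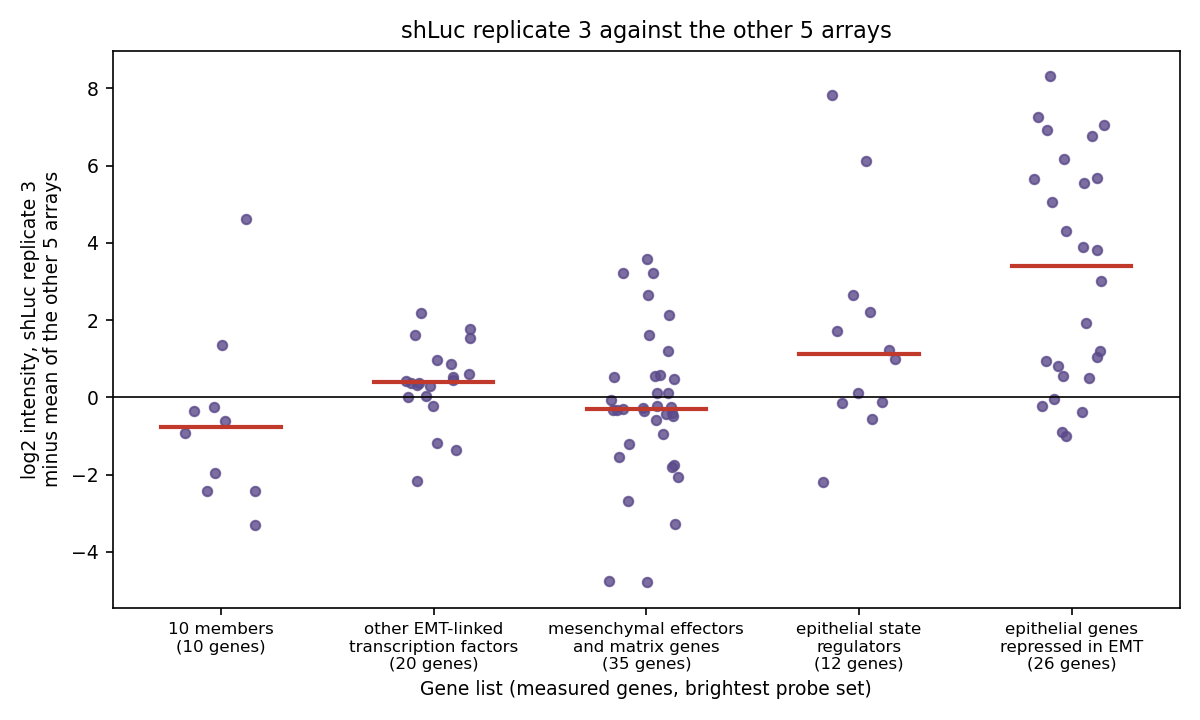
Difference in log2 intensity between shLuc replicate 3 and the mean of the other 5 arrays, 1 point per gene (brightest probe set), for the 10 genes and the 4 lists, with the median of each list as a red line. The epithelial genes lie mostly above 0 and the effector genes spread to both sides.

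The plot of shLuc replicate 3 against the other arrays shows this spread by list. The median difference was 0.39 on the log2 scale for the further transcription factors, -0.29 for the effectors, 1.11 for the epithelial regulators and 3.40 for the epithelial genes, beside 0.05 over all genes. Over the 27 member probe sets it was -0.35, beside 0.04 over all probe sets. The median log2 fold change of shSca-1 over shLuc for the epithelial genes was -0.83 on 6 arrays and -0.01 without shLuc replicate 3, and for the effectors 0.24 and -0.06.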

How the data were processed

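Total RNA of 3 shLuc and 3 shSca-1 samples was hybridized to Affymetrix mouse genome chips of 45101 probe sets. The authors computed intensities in dChip (version not given in the sources used here) from perfect match minus mismatch signals, normalized the arrays on an invariant set, and deposited linear intensity values. Groups came from the sample titles.

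Intensities under 1 were set to 1 and log2 transformed, 64 control probe sets were left out, and the remaining 45037 were fitted with limma (version 3.58.1 in R 4.3.3, with a mean-variance trend), Benjamini-Hochberg adjusted over all. The limma fit was tried on simulated data of 3 arrays against 3 with no array set apart, so that trial does not bear on the fits of 5 arrays. The methods name a t-test, which was an alternative. Other alternatives were quantile normalization, median centring, floors at 16 and 64, a filter at the 40th percentile, other variance models, arithmetic means, a replicate block and single arrays left out. Those on the 5 arrays were partly chosen after seeing the data. Precision is limited by having 3 arrays per group.

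Names came from GEO's platform annotation, which can be old: 34945 had 1 symbol, 932 several and 9160 none, and 34741 matched RefSeq by Entrez identifier. No member probe set had several symbols. Promoters came from RefSeq (GRCm38.p6). Snai2 and Cdh11 had no entry, and Zeb1 and Cdh2 are not shown.

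All 10 genes are named. Of the other lists, genes past the study's rule on 6 arrays (up to 4, by p) are named and, where fewer than 2 pass, the 2 brightest, with others named as chosen after their values were seen. Marker genes are named only where they bear on a result. The members and lists were chosen with earlier results of these data known.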

Additional observations from a re-analysis of the deposited data

How the results depend on the processing

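No member probe set passed on 6 arrays under any alternative scaling, floor, filter, variance model or test, and the count ranged from 0 to 2 by either rule when single arrays were left out, 2 being the count without shLuc replicate 3. With the replicate block, 0 member probe sets passed the adjusted p and 0 the study's rule. The replicate numbers did not pair the arrays (correlations of same-numbered deviations -0.043, -0.02 and -0.029, and no array correlated best with its own number).

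Without shLuc replicate 3, the count by adjusted p was 0 with a floor of 16, a floor of 64, no trend or the methods' t-test, against 2 with the settings of the report, and ranged from 0 to 5 with 1 more array left out. By the study's rule it was 2 with the settings of the report and 1 with a floor of 64, no trend or the methods' t-test, where 1605, 598, 1512 and 859 of all 45037 passed, and it ranged from 0 to 3. With a floor of 64, 1 in place of 5 probe sets was set apart as higher on shLuc replicate 3. Over all probe sets, the adjusted p called 0 on 6 arrays and 1244 on 5, and on 5 arrays 1932 after quantile normalization, 250 and 43 with the floors, 2344 after the filter, 2284 with robust variance, and 1 each with no trend and the t-test. On 6 arrays the alternatives called up to 56, and the study's rule called 824 with those settings and 578, 329 and 570 with a floor of 16, a floor of 64 and the t-test. The 5-array calls of Id3, Sparc, Acta2, Msn and Timp1 were lost with both floors (adjusted p = 0.056 to 0.32), except Msn with a floor of 16 (0.048), and with no trend (0.23 to 0.33) or the methods' t-test (0.12 to 0.34), and that of Acta2 with robust variance (0.085). Krt17 was lost with the same floors, no trend and t-test (0.21 to 0.34). The causes were not tested.

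The sign of several log2 fold changes turned. Of the values in this paragraph, only those of Zeb2 without shLuc replicate 3 (-0.68) and of Snai2 without shSca-1 replicate 3 on 5 arrays (-0.28) passed an adjusted p of 0.05. On 6 arrays Twist1 was 0.063 after quantile normalization and 0.046 after median centring, and Zeb2 was -0.24 from arithmetic means and -0.11 over all its probe sets. Leaving out single arrays gave -0.42 to 0.39 for Snai1, -0.069 to 1.16 for Snai2, -0.17 to 0.12 for Twist1, -0.0088 to 1.72 for Twist2, -0.15 to 1.12 for Zeb1, -0.68 to 0.57 for Zeb2 and -0.045 to 0.30 for Cdh2. On 5 arrays Twist2 was 0.072 after quantile normalization and 0.034 after centring, Vim -0.063 and Cdh2 0.023 after quantile normalization, and Prrx1 0.040 with a floor of 16. With 1 more array left out the ranges were -0.28 to 0.065 for Snai2, -0.16 to 0.14 for Twist2, -0.035 to 0.075 for Vim, -0.11 to 0.088 for Cdh2 and -0.27 to 0.14 for Prrx1. Where 1 shLuc array was left, it was assumed to vary like the shSca-1 arrays. Nearly all calls of the 5-array fit were lost there, so a lost call says little about the gene it concerns.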
